A study of Mus musculus with 24 samples.

Results

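The 7 genes described here are imprinted long noncoding RNAs of the mouse: Snhg14, Kcnq1ot1, Airn, Meg3, Rian, Mirg and H19. They were chosen by symbol, and not by a threshold on a measured value, from a table of 53465 gene rows in which each symbol matched 1 Ensembl identifier. Results of these data were known when the genes were picked and which measures led to them is not recorded, so every count of members past a test below is a description and supports nothing by itself. The RNAs were measured in 24 libraries from 12 tumours of the mouse mammary model 2153L, per the labels a p53 knockout, triple-negative tumour, and each of the 8 groups held 3 libraries.

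Imprinted genes are read from the copy of only one parent, and they lie in clusters in which a long noncoding RNA is often read from one parental chromosome while the protein-coding neighbours are read from the other. Kcnq1ot1, Airn and Snhg14 are read from the paternal chromosome and run antisense to Kcnq1, Igf2r and Ube3a. Kcnq1ot1 and Airn keep neighbouring genes silent in cis, mostly in extra-embryonic tissue, and the long Snhg14 transcript hosts snoRNAs and silences paternal Ube3a in neurons. Meg3, Rian and Mirg are read from the maternal chromosome of the Dlk1-Dio3 cluster, where Rian carries snoRNAs and Mirg carries miRNAs. H19, also maternal, is the partner of Igf2 and the host of Mir675. Antisense transcription is one route by which a cell can form double-stranded RNA, which the J2 antibody binds.

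All 12 tumours grew from fragments transplanted into cleared mammary fat pads of female BALB/c mice 6 to 8 weeks old, and treatment began at about 100 mm3. The groups compared were ORIN1001, an inhibitor of the RNase of the stress sensor IRE1α, at 150 mg/kg by daily gavage; docetaxel, a taxane that stabilises microtubules, at 10 mg/kg weekly into the peritoneum; the combination of both; and vehicle, which the mice on a single drug also received. Each tumour gave a J2 library, made from RNA pulled down with an antibody to double-stranded RNA, and an input library of its total RNA after ribosomal RNA depletion. The labels call the tumours biological replicates of bulk tumour cells from a single tumour line, so stroma of the host is included. The study concerns the silencing of double-stranded RNA by regulated IRE1-dependent decay of RNA.

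Depth ran from 2.54 to 63.3 M (mega) gene counts per library. The combination J2 libraries held 2.54 to 11 M, with 22.8% to 57.0% of counts at ribosomal RNA loci, whereas the other J2 libraries held 6.69 to 18.7 M with 1.26% to 15.7% there. Docetaxel tumour 3 had an outlying input of 3.27 M counts with a ribosomal RNA share of 67.9%, where the remaining inputs had 0.604% to 3.16%. All 6 markers of mammary epithelium, among them Epcam and Krt8, were counted in the inputs, and their summed level ran from 1258 to 2296 CPM (TMM-scaled counts for each M of gene counts in a library). Trp53, the gene knocked out, still averaged 27.7 ± 7.48 CPM in combination inputs, 41.1 ± 4.28 with ORIN1001, 39.0 ± 4.23 with docetaxel and 50.5 ± 4.87 in vehicle inputs (SD, n = 3 each). It fell by 0.82 ± 0.19 on the log2 scale with the combination against vehicle (edgeR adjusted p = 0.0433). Without vehicle tumour 3 edgeR called 0 genes in this comparison, so the Trp53 call was lost. Whole-gene counts include RNA of host cells and do not check the null allele.

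Kcnq1ot1 was counted most, with 407775 counts over all libraries, and Mirg least, with 86. Snhg14 had 5619, Airn 5313, Rian 2616, H19 1703 and Meg3 1548. These totals are not scaled by transcript length and do not rank the genes by level. In GRCm38.p6, the assembly also called mm10, Kcnq1ot1 (ENSMUSG00000101609.1) lies on the minus strand of chromosome 7 from 143213111 to 143296547, wholly inside Kcnq1. Snhg14 (ENSMUSG00000100826.6) spans 59272737 to 60450177 on the minus strand of the same chromosome, shares 38101 bases with the plus-strand gene Ube3a, and overlaps Snrpn and Snurf on its own strand. Airn (ENSMUSG00000078247.3) lies on the plus strand of chromosome 17 from 12741311 to 12859884 and shares 28396 bases with the minus-strand gene Igf2r. The kit keeps strand, but the strand setting of the counting is not given in the sources used here, so reads of these genes and their antisense partners cannot be told apart.

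Meg3 (ENSMUSG00000021268.17, 109540996 to 109571729), Rian (ENSMUSG00000097451.10, 109603945 to 109661716) and Mirg (ENSMUSG00000097391.8, 109734981 to 109749458) follow each other on the plus strand of chromosome 12. H19 (ENSMUSG00000000031.16) lies on chromosome 7 from 142575530 to 142578146. A list of miRNA genes ascribed to these hosts by symbol had 51 in the table. These held 97 counts in all, and 22 of them, Mir675 included, held 0. The RefSeq span of Meg3 overlaps 2 miRNA genes, that of Rian 3, that of Mirg 10 and that of H19 1, so not every listed gene lies in a host span. The span of Snhg14 holds 206 snoRNA genes and that of Rian 11.

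The promoters of Kcnq1ot1 and Snhg14 are shown because the J2 results turn on these RNAs, that of Airn because its J2 level lay above input in most tumours, and that of Meg3 as the maternal counterpart. Each is the RefSeq window of GRCm38.p6 from 250 bases before to 50 bases after the annotated start, written 5′ to 3′ on the strand of the gene, with Kcnq1ot1 at chr7:143296498-143296797 (minus), Snhg14 at chr7:60450128-60450427 (minus), Airn at chr17:12741061-12741360 (plus) and Meg3 at chr12:109540746-109541045 (plus). Capitals mark CCAAT or its reverse ATTGG, the palindrome TGACGTCA, and TATATAA or its reverse.
Kcnq1ot1: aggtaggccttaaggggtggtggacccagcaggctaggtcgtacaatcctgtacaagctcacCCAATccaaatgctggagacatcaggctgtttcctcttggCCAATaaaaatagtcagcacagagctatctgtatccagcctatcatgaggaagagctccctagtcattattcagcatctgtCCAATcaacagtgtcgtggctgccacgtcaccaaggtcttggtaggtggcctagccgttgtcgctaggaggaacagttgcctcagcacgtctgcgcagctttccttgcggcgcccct
Snhg14: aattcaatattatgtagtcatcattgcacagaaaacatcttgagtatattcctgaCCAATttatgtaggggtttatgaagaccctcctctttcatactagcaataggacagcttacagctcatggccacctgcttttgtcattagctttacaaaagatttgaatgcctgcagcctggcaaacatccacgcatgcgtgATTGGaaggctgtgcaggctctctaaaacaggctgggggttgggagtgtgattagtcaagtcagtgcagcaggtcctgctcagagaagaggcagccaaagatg
Airn: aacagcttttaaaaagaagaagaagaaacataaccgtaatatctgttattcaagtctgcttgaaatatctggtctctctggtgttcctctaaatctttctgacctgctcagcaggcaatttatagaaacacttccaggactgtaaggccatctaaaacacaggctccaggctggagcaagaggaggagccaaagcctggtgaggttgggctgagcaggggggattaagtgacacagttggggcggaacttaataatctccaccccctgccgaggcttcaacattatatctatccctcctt
Meg3: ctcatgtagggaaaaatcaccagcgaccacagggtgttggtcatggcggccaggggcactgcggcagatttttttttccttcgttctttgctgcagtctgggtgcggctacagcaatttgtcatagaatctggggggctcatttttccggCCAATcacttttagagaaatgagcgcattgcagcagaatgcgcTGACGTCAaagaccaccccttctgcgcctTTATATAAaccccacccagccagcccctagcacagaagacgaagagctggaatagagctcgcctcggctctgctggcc

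Both strands were searched for CCAAT, for the palindrome TGACGTCA, for TATATAA, for the shorter TATAAA and for TGCCGC. Positions count from the annotated start, with the base before it as −1. CCAAT occurred 3 times in the Kcnq1ot1 window, at −188, −148 and −67, and 2 times in that of Snhg14, at −195 and −53, while 37.4% of 32851 RefSeq promoters of the same length hold it at least once. The Meg3 window held TGACGTCA, the palindrome bound by CREB factors, at −57 (1.79% of promoters) and overlapping TATATAA matches at −28 and −27 (3.24% of promoters). It also held TATAAA at −29 and −25, overlapping these, CCAAT at −100 and TGCCGC at −190, which 13.6%, 37.4% and 11.6% of promoters hold. Of these words the Airn window held TATAAA alone, at −132. RefSeq has another Meg3 window, not shown, at chr12:109545148-109545447 (plus), which held none of these words and 1 CG dinucleotide. The windows shown held 9 CG dinucleotides for Kcnq1ot1, 2 for Snhg14, 3 for Airn and 13 for Meg3, against a median of 7 over all promoters. These matches describe the letters and say nothing about binding.

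In combination tumours Kcnq1ot1 and Snhg14 stood lower in J2 libraries than in inputs, whereas in vehicle tumours they stood higher in J2 libraries. J2 libraries of combination tumours 1, 2 and 3 held Kcnq1ot1 at 438, 260 and 424 CPM, against 1255, 2693 and 1404 CPM in their inputs. In vehicle tumours it stood at 1715, 1487 and 1313 CPM in J2 libraries and at 668, 304 and 819 CPM in inputs. J2 lay below input in each combination tumour and above it in each vehicle tumour. Docetaxel tumours were on the vehicle side, with 967, 1278 and 2185 CPM in J2 and 270, 315 and 924 CPM in inputs. With ORIN1001 the libraries overlapped, at 457, 706 and 382 CPM in J2 and 714, 400 and 346 CPM in inputs.

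Snhg14 was nearly absent from the combination J2 libraries, at 1.60, 1.32 and 0.200 CPM, which rest on 3, 3 and 2 counts, against 8.37, 12.2 and 10.9 CPM in the inputs. Vehicle tumours held it at 11.1, 12.1 and 20.4 CPM in J2 libraries and at 6.03, 5.95 and 9.86 CPM in inputs. The 3 combination J2 libraries lay below all other libraries but 1, the input of docetaxel tumour 3, where a single count gave 1.16 CPM. With ORIN1001 Snhg14 stood at 9.08, 25.7 and 14.3 CPM in J2 and at 12.3, 8.54 and 15.9 CPM in inputs. With docetaxel it stood at 7.07, 26.4 and 5.08 CPM in J2 and at 5.03, 5.96 and 1.16 CPM in inputs. The J2 and input ranges overlapped with ORIN1001 and with docetaxel, and they did not with the combination or vehicle. Set against the input of the same tumour, J2 was higher in 3 of 3 docetaxel tumours and in 1 of 3 ORIN1001 tumours.

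Airn, the antisense RNA of Igf2r, was above its input in the J2 library of 11 of 12 tumours. In combination tumours it stood at 12.2, 24.6 and 23.1 CPM in J2 and at 6.83, 9.19 and 8.10 CPM in inputs. Vehicle tumours gave 31.0, 26.5 and 34.1 CPM in J2 and 6.75, 4.07 and 8.97 CPM in inputs, and no combination J2 library reached the vehicle J2 range. With ORIN1001 it stood at 12.7, 14.9 and 12.6 CPM in J2 and at 8.56, 6.13 and 6.58 CPM in inputs. With docetaxel J2 held 18.8, 14.4 and 14 CPM and inputs 2.46, 2.77 and 24.4 CPM. The last of these, from tumour 3, rests on 21 counts and is the exception among the 12 tumours.

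**Figure D1:**
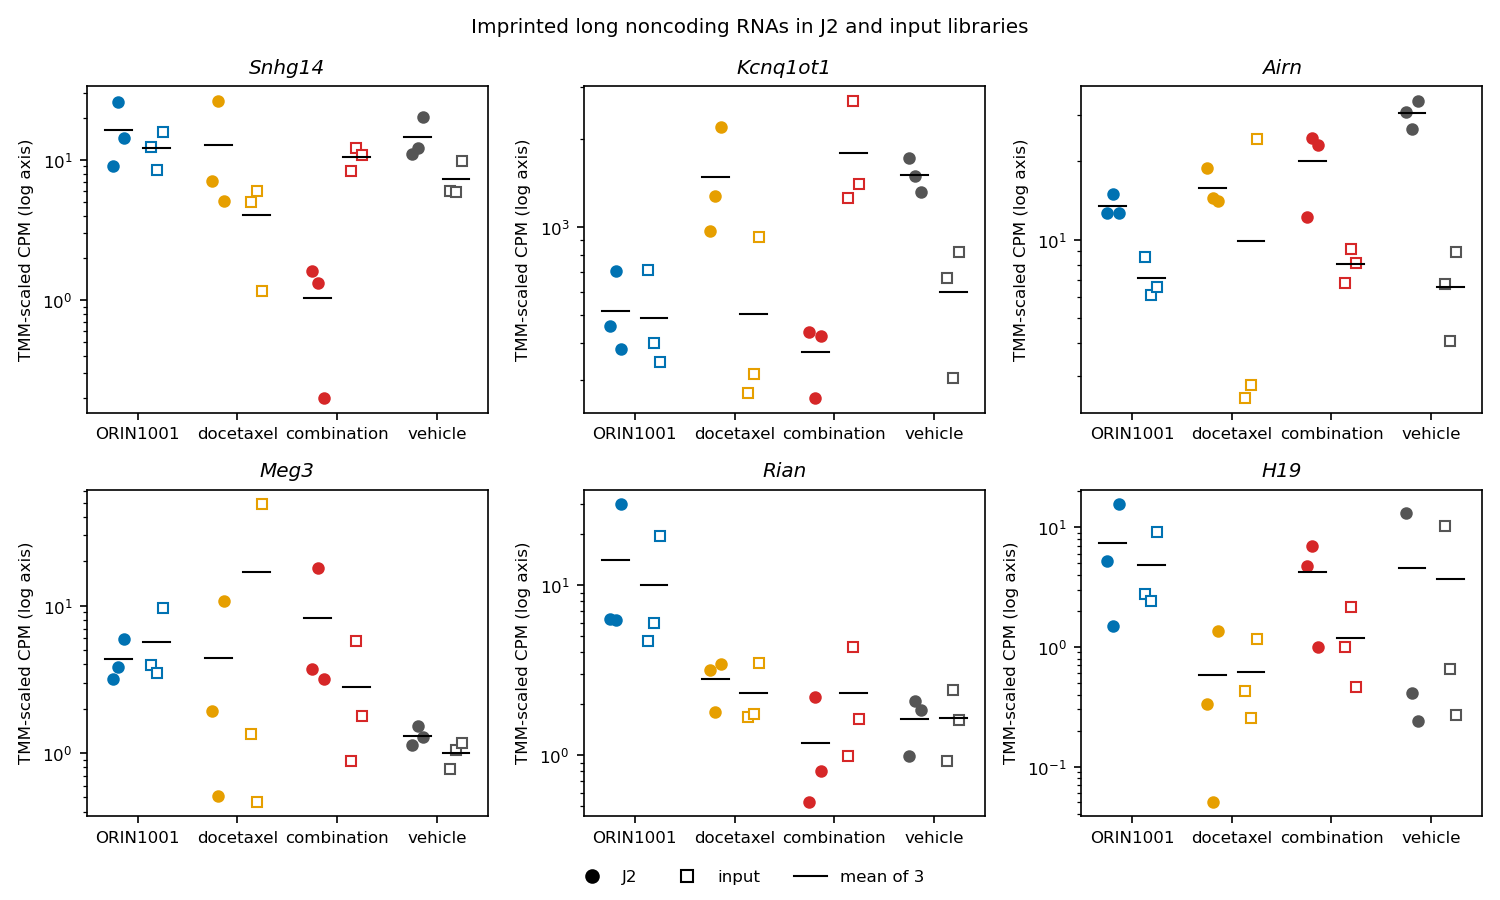
Level of Snhg14, Kcnq1ot1, Airn, Meg3, Rian and H19 in every library, in CPM on a log axis, with treatments in the order ORIN1001, docetaxel, combination, vehicle. Mirg is not drawn. Filled circles are J2 libraries, open squares inputs, and black lines the mean of 3. Kcnq1ot1 and Snhg14 have their combination J2 points below the inputs of the same tumours, and Airn has its J2 points above the inputs in 11 of 12 tumours.

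The RNAs of the Dlk1-Dio3 cluster were low and uneven between tumours. Meg3 in the inputs stood at 3.98, 3.49 and 9.60 CPM with ORIN1001, 1.34, 0.468 and 48.8 CPM with docetaxel, 0.881, 5.72 and 1.77 CPM with the combination and 0.775, 1.05 and 1.17 CPM with vehicle. The ORIN1001 inputs lay above all vehicle inputs, while the docetaxel mean was set by tumour 3, where 42 counts gave the 48.8 CPM. In J2 libraries Meg3 stood at 3.17, 3.83 and 5.97 CPM with ORIN1001, 1.93, 0.509 and 10.8 CPM with docetaxel, 3.72, 18.0 and 3.2 CPM with the combination and 1.13, 1.52 and 1.28 CPM with vehicle. The combination and the ORIN1001 J2 libraries all lay above the 3 of vehicle.

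Rian, the next RNA along the cluster, was highest with ORIN1001, at 6.27, 6.18 and 29.7 CPM in J2 and 4.66, 6.00 and 19.3 CPM in inputs. Vehicle tumours held 0.992, 2.07 and 1.84 CPM in J2 and 0.919, 2.42 and 1.60 CPM in inputs. Every ORIN1001 value lay above every vehicle value, and tumour 3 was the highest in both assays. Docetaxel tumours had 3.15, 1.78 and 3.43 CPM in J2 and 1.66, 1.75 and 3.48 CPM in inputs. Combination tumours had 0.532, 2.19 and 0.801 CPM in J2, from 1, 5 and 8 counts, and 0.991, 4.28 and 1.63 CPM in inputs. Both sets overlapped those of vehicle.

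Mirg, at the far end, had at most 23 counts in a library and did not pass the filter for testing. It was highest in the input of docetaxel tumour 3, where 2 counts gave 2.32 CPM, and otherwise in that of ORIN1001 tumour 3, at 0.565 CPM. Combination J2 libraries 1 and 3 and the J2 library of vehicle tumour 3 held 0 counts, which allows up to 1.59, 0.300 and 0.240 CPM there at 3 counts. ORIN1001 inputs held it at 0.203, 0.196 and 0.565 CPM, and vehicle inputs at 0.0574, 0.0250 and 0.0271 CPM from 1 or 2 counts each.

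H19 differed widely between the vehicle tumours. Vehicle tumour 1 held 13.1 CPM in J2 and 10.2 CPM in the input, whereas tumours 2 and 3 held 0.413 and 0.241 CPM in J2 and 0.650 and 0.271 CPM in inputs. ORIN1001 tumours had 5.21, 1.49 and 15.6 CPM in J2 and 2.80, 2.44 and 9.23 CPM in inputs. Docetaxel tumours had 0.332, 0.0509 and 1.37 CPM in J2, from 6, 1 and 10 counts, and 0.428, 0.254 and 1.16 CPM in inputs. Combination tumours had 4.79, 7.02 and 1.00 CPM in J2, from 9, 16 and 10 counts, and 0.991, 2.14 and 0.465 CPM in inputs, so that each J2 library lay above its own input.

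Over the 8 groups, the order of mean levels was mostly one of overlapping neighbours. Kcnq1ot1 ran from combination input (1784 ± 791 CPM) through vehicle J2 (1505 ± 202) and docetaxel J2 (1477 ± 633) to vehicle input (597 ± 265), ORIN1001 J2 (515 ± 170), docetaxel input (503 ± 366), ORIN1001 input (487 ± 199) and combination J2 (374 ± 98.8), each a mean ± SD of 3. Of these neighbours only docetaxel J2 and vehicle input did not overlap in range. For Airn the one break lay between vehicle J2 at the top and combination J2, and for Rian between ORIN1001 input and docetaxel J2. Snhg14, with ORIN1001 J2 at the top (16.4 CPM) and combination J2 at the bottom (1.04 CPM), Meg3, with docetaxel input at the top (16.9 CPM) and vehicle input at the bottom (0.997 CPM), H19 and Mirg had no break between neighbours.

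The input comparisons ask what each treatment did to the amount of these RNAs in the tumour. In bulk tissue, fewer cells of a type and less RNA per cell cannot be told apart. Fold changes here and below are log2 values with their SE, taken from the quasi-likelihood fit of edgeR, with p-values adjusted by Benjamini-Hochberg over all 17768 genes tested in the inputs, and 6 of the 7 members were tested. With ORIN1001 against vehicle edgeR called 0% of genes and 0 of the 6 members, with 787 genes and 1 member at an unadjusted p under 0.05. DESeq2 called 34 genes, Rian among them.

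Rian stood at 2.57 ± 0.64 with ORIN1001 against vehicle (95% interval 1.17 to 3.97, edgeR adjusted p = 0.682), higher in 3 of 3 tumours. DESeq2 gave 2.59 with an adjusted p of 0.043, and edgeR gave 1.69 without ORIN1001 tumour 3. Meg3 stood at 2.48 ± 1.29 (−0.35 to 5.30) and Snhg14 at 0.72 ± 0.35 (−0.05 to 1.5). Airn was at 0.08 ± 0.65, Kcnq1ot1 at −0.32 ± 0.54 and H19 at 0.34 ± 1.04. The intervals of all of these members lay on both sides of 0 (edgeR adjusted p = 1.00 for each). Without vehicle tumour 1, the one high in H19, that gene stood at 3.36.

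Fibroblast markers moved with Meg3 in part across the inputs. None of the 9 markers was at 0 in every input, though the lowest input level of Dcn was 0 CPM. Their sums were 267, 461 and 928 CPM in ORIN1001 tumours 1 to 3 and 364, 189 and 2503 CPM with docetaxel. Combination tumours had 300, 618 and 371 CPM and vehicle tumours 251, 256 and 245 CPM. The highest sums with ORIN1001, with docetaxel and with the combination fell in the tumours with the highest Meg3. In vehicle, tumour 3 had the highest Meg3 (1.17 CPM) and the lowest sum (245 CPM). ORIN1001 tumour 1 had more Meg3 than ORIN1001 tumour 2 (3.98 against 3.49 CPM) but a lower sum (267 against 461 CPM). For ORIN1001 against vehicle, where no gene passed by edgeR, the markers had a median log2 change of 1.27, against −0.01 over all genes. Other cell type markers differed as well. The 4 adipocyte markers summed to 190 CPM in docetaxel tumour 3, against 2.73 and 2.25 in docetaxel tumours 1 and 2, and to 21.7 CPM in ORIN1001 tumour 3, against 6.78 and 5.35 in ORIN1001 tumours 1 and 2. The 6 endothelial markers summed to 50.5, 52.5 and 95.9 CPM with ORIN1001 and 58, 44.9 and 69.7 with docetaxel, against 39.3, 30.8 and 25.9 with vehicle. The part of these markers in the levels of the members was not tested.

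**Figure D2:**
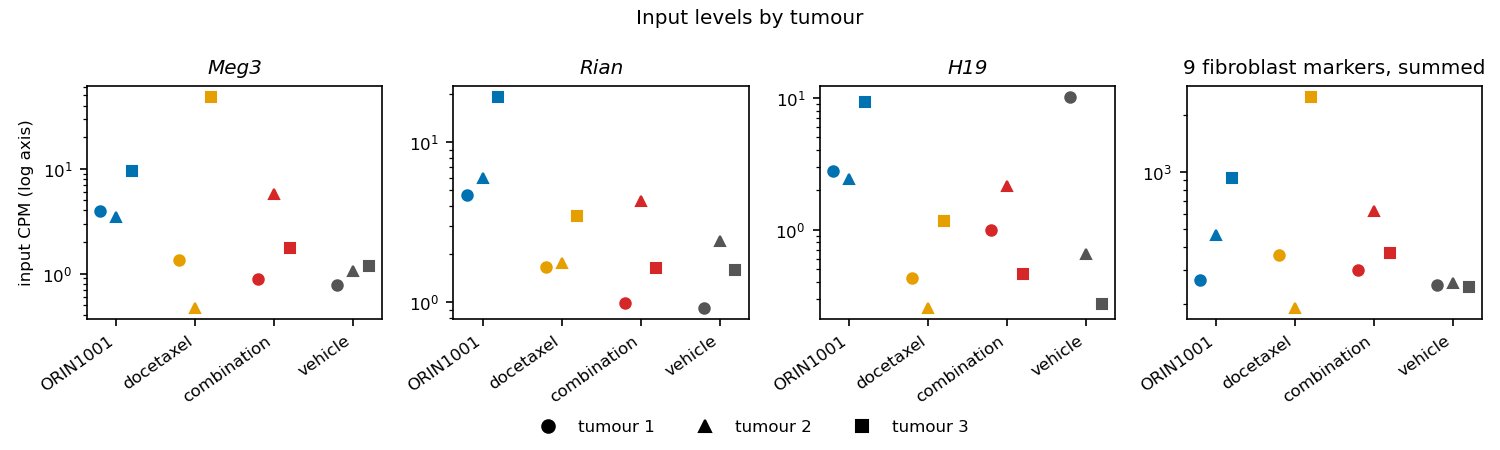
Input level in CPM, on a log axis, of Meg3, Rian and H19 and of the sum of 9 fibroblast markers, 1 point per tumour. Docetaxel tumour 3 is highest for Meg3 (48.8 CPM) and the marker sum (2503 CPM), ORIN1001 tumour 3 for Rian (19.3 CPM) and vehicle tumour 1 for H19 (10.2 CPM).

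With docetaxel against vehicle edgeR again called 0% of genes and 0 of 6 members, with 1857 genes and 2 members at an unadjusted p under 0.05, while DESeq2 called 131 genes and 0 members. Both members, Meg3 at 3.62 ± 1.47 and H19 at −3.43 ± 1.40 (edgeR adjusted p = 0.444 for each), rested on single tumours. Meg3 stood at −0.29 without docetaxel tumour 3 and H19 at −0.40 without vehicle tumour 1. Snhg14 was at −0.63 ± 0.38, Kcnq1ot1 at −0.29 ± 0.54, Airn at −0.06 ± 0.75 and Rian at 0.16 ± 0.69. Without docetaxel tumour 3, Kcnq1ot1 stood at −1.07 and Airn at −1.36.

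With the combination against vehicle, edgeR called 4.77% of genes and 0 of 6 members, with 1 member at an unadjusted p under 0.05. Kcnq1ot1 was that member, at 1.61 ± 0.55 (0.41 to 2.81, edgeR adjusted p = 0.0909), and all 3 combination inputs lay above all 3 vehicle inputs. Its call turned on the method and on 1 tumour that is in neither group. DESeq2 gave 1.69 with an adjusted p of 0.0248, and edgeR without docetaxel tumour 3 gave 1.63 with an adjusted p of 0.0192. Kcnq1, which holds Kcnq1ot1 within its span, stood at 1.38 ± 0.44 (edgeR adjusted p = 0.0772). T cell markers (4 genes) summed to 12.3 to 21.5 CPM in combination inputs, against 4.44 to 6.26 CPM in vehicle inputs, and neutrophil markers (3 genes, 2 of them called lower) to 17.2 to 25.5 CPM, against 37.4 to 75.4 CPM. Their part in the level of Kcnq1ot1 was not tested. Snhg14 was at 0.57 ± 0.36, Airn at 0.32 ± 0.65, Meg3 at 1.51 ± 1.29, Rian at 0.52 ± 0.63 and H19 at −1.61 ± 1.11.

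The combination was also set against each single drug. Against docetaxel edgeR called 7.43% of genes and 0 of 6 members, with 2 members at an unadjusted p under 0.05, Kcnq1ot1 at 1.90 ± 0.56 and Snhg14 at 1.20 ± 0.38 (edgeR adjusted p = 0.0586 and 0.0759). DESeq2 called both, at 1.87 and 1.23 (adjusted p = 0.0115 and 0.0215). Without docetaxel tumour 3 edgeR called 3 members, Kcnq1ot1 at 2.7, Airn at 1.70 and Snhg14 at 1.02 (adjusted p = 0.0108, 0.0111 and 0.0384), and Meg3 stood at 1.81, against −2.11 ± 1.41 with that tumour. H19 stood at 1.82 ± 1.39 and Rian at 0.36 ± 0.70.

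Against ORIN1001 edgeR called 12.6% of genes and 1 of 6 members. Kcnq1ot1 rose by 1.93 ± 0.55 (0.72 to 3.14, edgeR adjusted p = 0.0434), and its 3 combination inputs lay above the 3 of ORIN1001. The value ran from 1.53 to 2.32 over 7 of the single tumours left out, and in each of these the call was lost: vehicle 1 and 3 (adjusted p = 0.0595 and 0.0536), ORIN1001 1, 2 and 3 (0.053, 0.14 and 0.159) and combination 2 and 3 (0.18 and 0.0855). Without docetaxel tumour 3 it stood at 1.94 with an adjusted p of 0.00811. Rian stood at −2.05 ± 0.64 (edgeR adjusted p = 0.0549), and it passed in DESeq2 (−1.98, adjusted p = 0.0192) and without docetaxel tumour 3 (−2.06, adjusted p = 0.0275). Without ORIN1001 tumour 3 it stood at −1.19. H19 (−1.95 ± 1.12), Meg3 (−0.97 ± 1.24), Airn (0.24 ± 0.65) and Snhg14 (−0.16 ± 0.35) did not pass. The comparisons with the combination share its 3 inputs, so their Kcnq1ot1 values are not separate evidence.

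**Figure D3:**
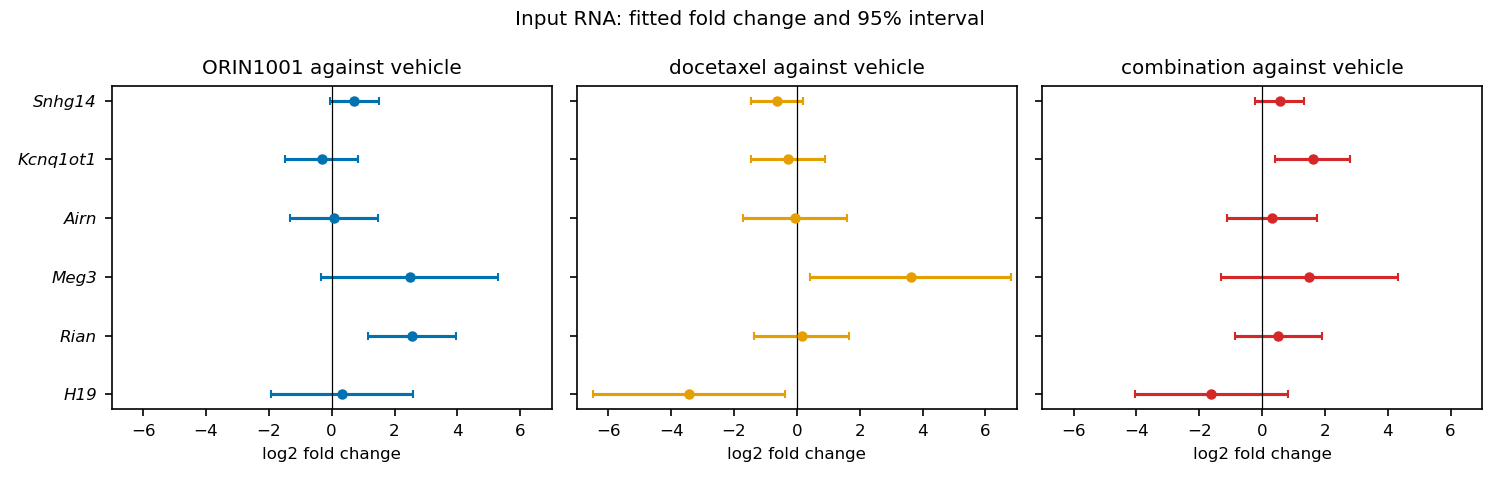
Log2 fold change in input RNA of the 6 tested RNAs for ORIN1001, docetaxel and the combination, each against vehicle, with 95% intervals from edgeR's fit over 12 inputs. No member passed an adjusted p of 0.05, and the intervals of Rian with ORIN1001, of Meg3 and H19 with docetaxel and of Kcnq1ot1 with the combination leave out 0.

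The J2 comparisons ask how each RNA stood in J2 against input, as a log2 ratio. They come from 1 fit of the 24 libraries that compares J2 and input inside each tumour. TMM scaling assumes that most genes do not differ between libraries. A ratio above or below 0, called J2 enrichment here, is therefore relative to the typical gene and is no absolute measure of antibody binding. The TMM factors were 0.487 to 0.905 in combination J2 libraries and 0.974 to 1.09 in the other J2 libraries. Here 17338 genes were tested, again with 6 of the 7 members. Averaged over treatments, edgeR called 55.0% of genes and 1 of 6 members. Airn rose by 1.57 ± 0.23 in J2 over input (1.09 to 2.05, edgeR adjusted p = 4.37e-05), higher in 11 of 12 tumours. The other 5 members averaged between −0.32 (Snhg14) and 0.34 (H19). Kcnq1ot1, at 0.27 ± 0.19, was called without combination tumour 2 (0.45, adjusted p = 0.0324), and Meg3, at 0.23 ± 0.22, without docetaxel tumour 3 (0.50, adjusted p = 0.013).

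In vehicle tumours alone, where edgeR called 41.4% of genes, 2 of 6 members were higher in J2 than in input. Airn rose by 2.27 ± 0.43 (edgeR adjusted p = 0.00119) and Kcnq1ot1 by 1.44 ± 0.38 (edgeR adjusted p = 0.00825; 1.06 and adjusted p = 0.0972 without vehicle tumour 2). Snhg14 stood at 0.99 ± 0.39, just outside the threshold (edgeR adjusted p = 0.0548), with ratios of 0.88, 1.03 and 1.05 in the 3 tumours. It was called at 1.01 to 1.05 when ORIN1001 2, docetaxel 1, 2 or 3, or combination 1 or 3 was left out, with adjusted p from 0.0177 to 0.0497. Meg3 (0.40 ± 0.45), Rian (0.02 ± 0.28) and H19 (0.01 ± 0.46) did not pass.

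In ORIN1001 tumours edgeR called 28.1% of genes and 0 of 6 members, with 1 member, Airn, at an unadjusted p under 0.05, and DESeq2 called 0 members. Airn stood at 0.93 ± 0.42 (edgeR adjusted p = 0.114) with ratios of 0.57, 1.28 and 0.93, and passed without docetaxel tumour 3 (0.99, adjusted p = 0.000618). Kcnq1ot1 stood at 0.11 ± 0.37, with ratios of −0.64, 0.82 and 0.14 that fell on both sides of 0. Snhg14 (0.32 ± 0.40), Meg3 (−0.30 ± 0.39), Rian (0.37 ± 0.24) and H19 (0.38 ± 0.35) did not pass.

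In docetaxel tumours edgeR called 23.9% of genes and 3 of 6 members, all higher in J2 than in input. Airn rose by 1.80 ± 0.49 (edgeR adjusted p = 0.0195), Kcnq1ot1 by 1.70 ± 0.38 (edgeR adjusted p = 0.00787) and Snhg14 by 1.41 ± 0.48 (edgeR adjusted p = 0.0435). Each call was lost without docetaxel tumour 1 or 2: Airn stood at 1.07 and 1.33 (adjusted p = 0.236 and 0.225), Kcnq1ot1 at 1.60 and 1.51 (0.0594 and 0.081) and Snhg14 at 2.11 and 0.71 (0.0518 and 0.501). Snhg14 also lost its call, at 1.39, without vehicle 1, 2 or 3 or ORIN1001 3 (adjusted p = 0.0622 to 0.0697). Meg3 stood at −0.63 ± 0.46, and at 0.35 without docetaxel tumour 3, H19 at −0.74 ± 0.62 and Rian at 0.39 ± 0.30.

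In combination tumours edgeR called 36.8% of genes and 5 of 6 members, and they split by direction. Snhg14 fell by 4.0 ± 0.67 in J2 against input (edgeR adjusted p = 0.000590) and Kcnq1ot1 by 2.19 ± 0.39 (edgeR adjusted p = 0.000902). H19 rose by 1.71 ± 0.45 (edgeR adjusted p = 0.00952), Meg3 by 1.44 ± 0.46 (edgeR adjusted p = 0.0241) and Airn by 1.29 ± 0.46 (edgeR adjusted p = 0.0384). Rian stood at −0.98 ± 0.39 (edgeR adjusted p = 0.0616). All 3 combination tumours had a ratio above 0 for each of the 3 RNAs that rose, but the calls were lost with single tumours left out, at values between 1.20 and 1.47. H19 lost its call without combination 1 (1.46, adjusted p = 0.0586), Meg3 without combination 1 or 2 (1.28 and 1.31, adjusted p = 0.0831 and 0.135), and Airn without vehicle 1 (1.32, adjusted p = 0.0508) or combination 1, 2 or 3 (1.47, 1.27 and 1.20, adjusted p = 0.064, 0.119 and 0.181).

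The ratios in the single tumours show the same split. Kcnq1ot1 had log2 ratios of J2 to input of −1.52, −3.37 and −1.73 in combination tumours, against 1.36, 2.29 and 0.68 in vehicle tumours. Snhg14 had −2.39, −3.21 and −5.77 in combination tumours, with 95% counting intervals of −4.68 to −0.82, −5.50 to −1.65 and −8.82 to −3.90. These intervals cover counting error only and lie below the 3 vehicle ratios. H19 had 2.27, 1.71 and 1.10 in combination tumours, against 0.37, −0.65 and −0.17 in vehicle tumours, and Meg3 had 2.08, 1.65 and 0.86, against 0.55, 0.53 and 0.14. Rian had −0.90, −0.96 and −1.02 in combination tumours, against 0.11, −0.23 and 0.21 in vehicle tumours.

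**Figure D4:**
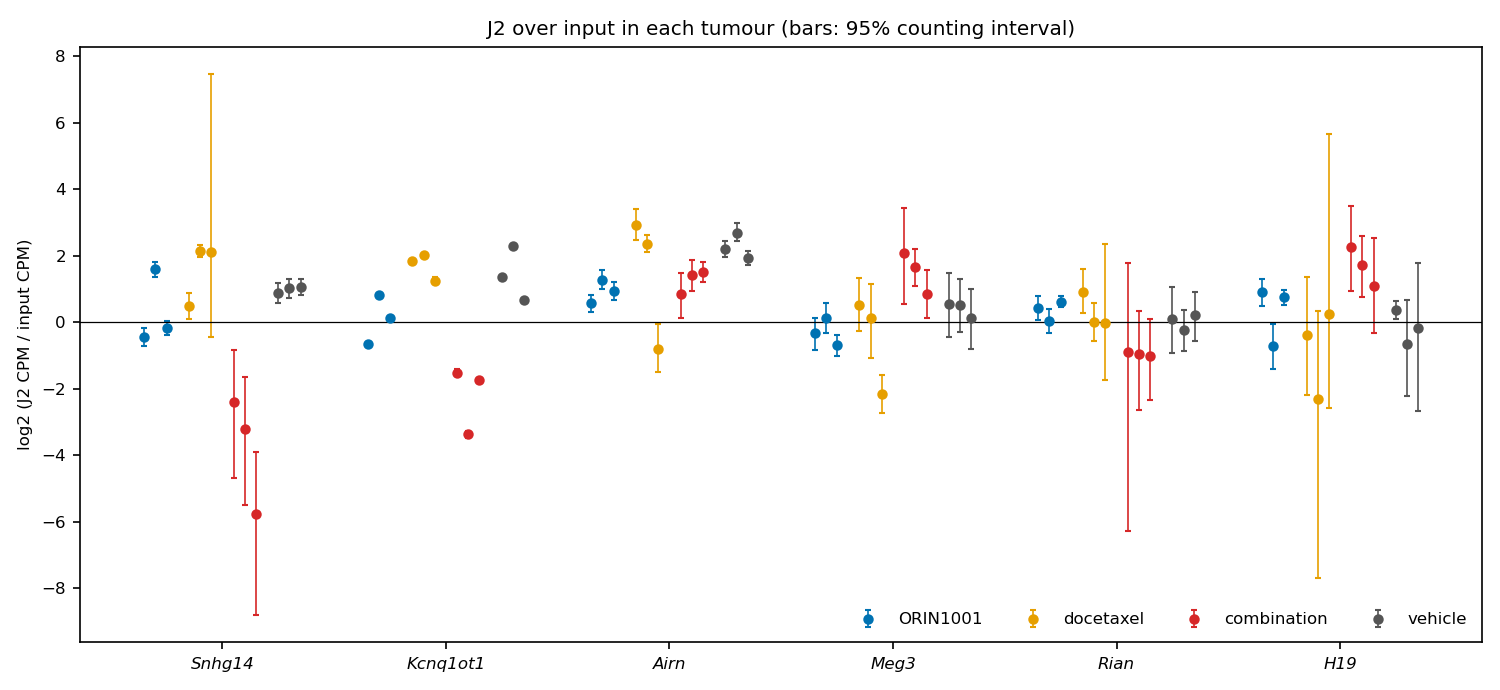
Log2 ratio of J2 to input in each tumour, with 95% counting intervals, for the tested RNAs. Snhg14 and Kcnq1ot1 lie below 0 in all 3 combination tumours, at −5.77 to −2.39 and −3.37 to −1.52, and above 0 in all 3 vehicle tumours.

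The change of the J2 enrichment between treatments was tested in the same fit. For ORIN1001 against vehicle edgeR called 0% of genes and 0 of 6 members, with 605 genes and 2 members at an unadjusted p under 0.05. Those members were Kcnq1ot1 at −1.33 ± 0.53 and Airn at −1.35 ± 0.59 (edgeR adjusted p = 1.00 for each), and DESeq2 called 0 genes. For docetaxel against vehicle edgeR also called 0% of genes and 0 of 6 members, with 730 genes and 0 members at an unadjusted p under 0.05, while DESeq2 called 6 genes and 0 members. The members lay between −1.03 (Meg3) and 0.43 (Snhg14), with Kcnq1ot1 at 0.26 ± 0.53 (−0.86 to 1.38).

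For the combination against vehicle edgeR called 29.9% of genes, 12.7% higher and 17.1% lower, and 3 of 6 members. The J2 enrichment of Snhg14 fell by 4.99 ± 0.78 (−6.66 to −3.32, edgeR adjusted p = 0.00121) and that of Kcnq1ot1 fell by 3.63 ± 0.55 (−4.80 to −2.46, edgeR adjusted p = 0.00105), lower than every vehicle ratio in 3 of 3 tumours each. With any 1 of the 12 tumours left out, Snhg14 ran from −5.63 to −3.80 and Kcnq1ot1 from −4.00 to −3.08, and both passed each time. The combination J2 libraries also differed from those of vehicle in depth and in ribosomal RNA share, and the part of these in the result was not tested. Within the combination, Snhg14 had its lowest ratio (−5.77) in tumour 3, where the J2 library was deepest (11 M) and its ribosomal RNA share lowest (22.8%). Kcnq1ot1 had its lowest ratio (−3.37) in tumour 2, where that share was highest (57.0%). With ribosomal RNA loci left out of the table Snhg14 stood at −5.03 and Kcnq1ot1 at −3.67 (edgeR adjusted p = 0.00124 and 0.00108).

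That of H19 rose by 1.70 ± 0.62 (0.38 to 3.01, edgeR adjusted p = 0.0498), at the edge of the threshold. The value ran from 1.44 to 2.18 over the tumours left out, and the call was lost in 9 of 12: vehicle 1, 2 and 3 (adjusted p = 0.0746, 0.144 and 0.092), ORIN1001 1 and 3 (0.0569 and 0.0654), docetaxel 1 (0.0562) and combination 1, 2 and 3 (0.129, 0.123 and 0.0582). It was also lost with ribosomal RNA loci left out (1.67, adjusted p = 0.0508) and without the tumour block (1.38, adjusted p = 0.651). Meg3 stood at 1.04 ± 0.64, Rian at −1.0 ± 0.48 and Airn at −0.98 ± 0.61 (edgeR adjusted p = 0.237, 0.134 and 0.244). Airn passed without docetaxel tumour 3, at −1.0 with an adjusted p of 0.0105.

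**Figure D5:**
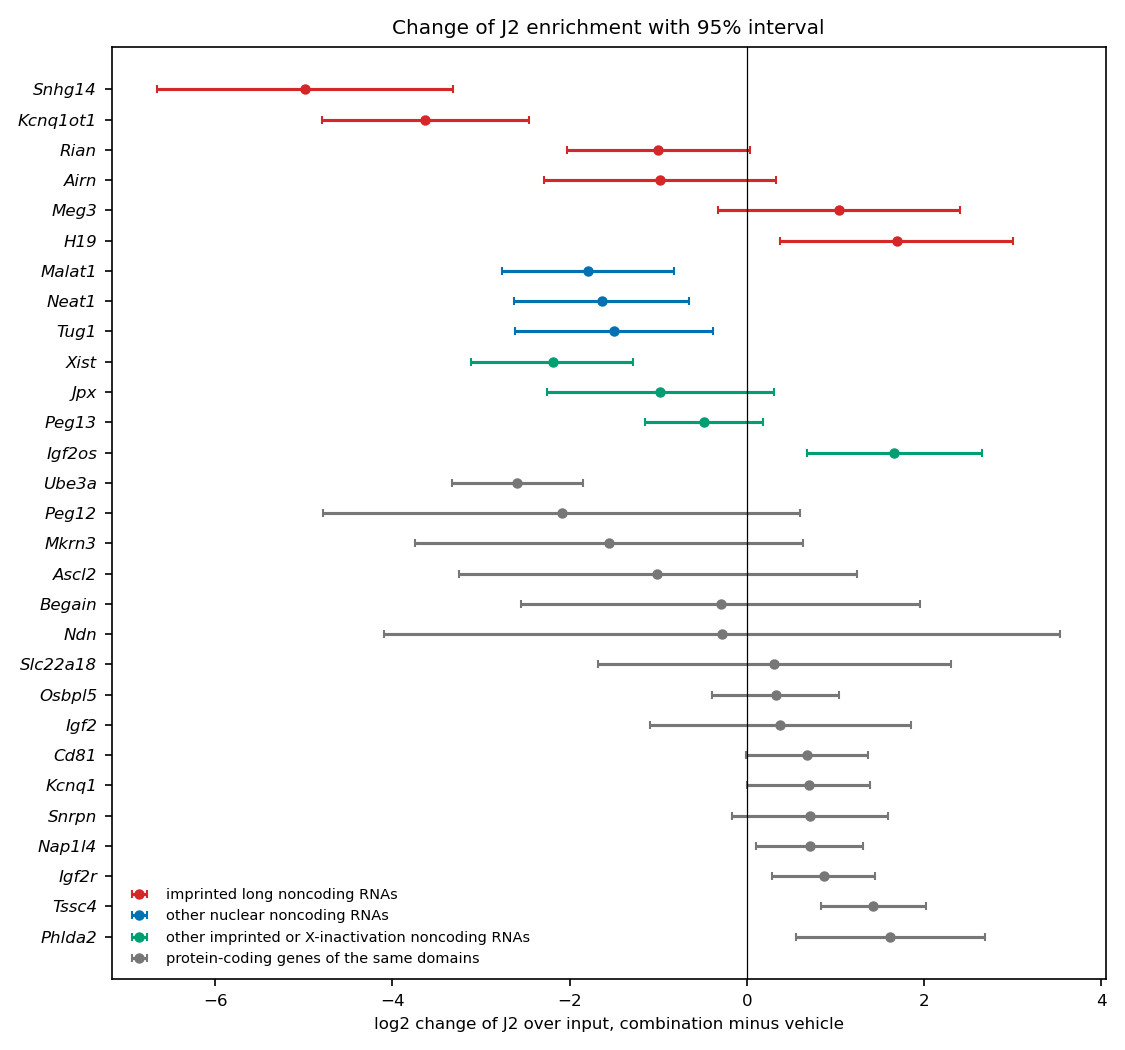
Change of the log2 J2 enrichment, combination minus vehicle, with 95% intervals from edgeR, for the members, the nuclear RNAs, other imprinted noncoding RNAs and the coding genes of the same domains. Snhg14 (−4.99) and Kcnq1ot1 (−3.63) lie lowest, Ube3a stands at −2.59 and H19 at 1.70. Nespas is not drawn because its interval is too wide to plot.

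The members were read against lists of related genes in the same comparison. Their median change was −0.99 over the 6 tested, against 0 over all 17338 genes and −0.41 over 787 lncRNA genes, of which 30 were higher and 106 lower. Among 16 tested of 29 protein-coding genes of the same domains 3 were higher and 1 lower, with a median of 0.35. The 1 lower was Ube3a, the ubiquitin ligase gene that overlaps Snhg14, which fell by 2.59 ± 0.35 (edgeR adjusted p = 0.00101). Its J2 to input ratios were −1.02, −1.39 and −1.23 in combination tumours, against 1.24, 1.33 and 1.56 in vehicle tumours, so both genes of this antisense pair lay below input in the combination and above it with vehicle.

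The antisense partners of Airn and Kcnq1ot1 had values above 0. Igf2r, a receptor gene that overlaps Airn, rose by 0.87 (edgeR adjusted p = 0.0263), with a J2 to input value of 0 ± 0.19 in combination tumours and −0.88 ± 0.19 in vehicle tumours. Kcnq1, the potassium channel gene around Kcnq1ot1, stood at 0.70 (edgeR adjusted p = 0.120). Phlda2, a growth-restraining gene of the Kcnq1 domain, rose by 1.62 and Tssc4 by 1.43 (edgeR adjusted p = 0.0255 and 0.00245). Reads from either strand of an overlap may enter the count of each partner, as the strand setting is not given.

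Among 28 tested of 35 other imprinted coding genes 3 were higher and 6 lower, with a median of −0.52. Phactr2 fell by 1.66, and Mcts2 rose by 2.18. Of 5 tested among 24 other imprinted or X-inactivation noncoding RNAs, Xist, the RNA that silences the inactive X, fell by 2.19 (edgeR adjusted p = 0.00263), and Igf2os, antisense to Igf2, rose by 1.66 (edgeR adjusted p = 0.0155). The nuclear RNAs Malat1, Neat1 and Tug1 fell by 1.79, 1.64 and 1.5 (edgeR adjusted p = 0.0099, 0.0164 and 0.0425), 3 of 3 on their list. Of the 6 epithelial markers 4 were higher, with a median of 1.32, where 12.7% of all genes were higher. Other cell type markers were called as well. Of the 9 fibroblast markers 3 were higher and 1 lower. Of the 4 T cell, the 3 neutrophil and the 2 tested skeletal muscle markers 1 each was higher. No endothelial, macrophage or adipocyte marker passed.

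In the inputs of combination tumours against vehicle, Igf2r stood at −0.98 and Ascl2, a placental transcription factor gene of the Kcnq1 domain, at 2.04 (edgeR adjusted p = 0.0551 and 0.0935). Against ORIN1001 1 of the 18 coding genes of the same domains tested passed. It was Snrpn, a splicing protein gene that overlaps Snhg14, which fell by 1.52 (edgeR adjusted p = 0.0202). Without ORIN1001 tumour 3 edgeR called 0 genes in this comparison, so the Snrpn call was lost.

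The genes most alike to each member across the 12 inputs were found by Spearman's rho of log2 CPM, as a description with no test. For Meg3 they were Col1a2 (0.951), a collagen gene that is among the fibroblast markers, Snrk (0.930) and Bnc2 (0.923). Snhg14 was most like Icmt (0.944), Tmem29 (0.923) and Fap (0.916), a fibroblast protease gene, and Kcnq1ot1 most like the noncoding RNA Pvt1 (0.986), Alg6 and Mir5128 (0.958 each). Airn went with Hsf4 (1.00), Zfyve27 (0.986) and Syne2 (0.965), Rian with Hdac9 (0.846), Pcdh19 (0.839) and Ap3m2 (0.832), and H19 with Tldc1 (0.867), Plin2 (0.811) and Dnm3os (0.804). These points share the depth and the makeup of their libraries. Without the input of docetaxel tumour 3, only 1 or 2 of the 3 names remained for each member.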

How the data were processed

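Total RNA (input) and RNA bound by the J2 antibody were sequenced from 12 tumours, 3 for each of 4 treatments. The values are counts, deposited by the authors as whole numbers per gene with no normalization. The tools named in the submitters' processing notes are STAR 2.7.3a, fastp 0.23.2 and featureCounts 2.0.3, beside the build mm10, without their roles. No source used here gives the strand setting, the annotation release or the handling of reads with several positions. Of 53465 rows, 53274 were matched to a symbol by Ensembl identifier, 50604 of them by exact version, and no row lacked a gene name. Coordinates and promoters are from RefSeq GRCm38.p6, where 6 of the 7 members had a promoter entry.

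Counts were scaled by TMM and tested with edgeR 4.0.16 (R 4.3.3, limma 3.58.1; filterByExpr, minimum count 10, minimum total 15; quasi-likelihood F test, two-sided, Benjamini-Hochberg threshold 0.05 over all genes tested). The procedure was tested on simulated counts with the same makeup in all libraries apart from the changed genes, the same spread for all genes and no tumour effect. That test does not cover the differences in ribosomal RNA share between the real libraries. The 12 inputs were fitted with 1 coefficient per treatment. The 24 libraries were fitted with 1 J2 coefficient for each treatment and a block for each tumour. The design text states that each J2 library has a paired input. The partner was taken to be the input of the same treatment and replicate number. After removal of group means the pair correlated above 0.1 in 10 of 12 tumours. The values were 0.091, 0.098 and 0.106 in combination tumours, 0.214 to 0.626 in single-drug tumours and 0.604 to 0.72 in vehicle tumours. Inputs of the same number in different treatments are not paired in the labels. Counting intervals of single ratios are exact 95% binomial intervals and cover counting error only. Replicates of a group differed by a chi-square of at least 11.5 per degree of freedom in 24 pairs, so no library looked deposited again.

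The alternatives were DESeq2 1.42.0, RLE scaling, no filter, ribosomal RNA loci left out, a replicate block added to the input fit, the tumour block removed from the J2 fit, and each tumour left out. The rule for named genes covers all 7 members, of which Mirg had too few counts to be tested, and allows Trp53, the 3 nuclear RNAs, up to 4 genes of smallest p from each other list and the 3 genes most alike to each member. Not every gene it allows is described. The members and all lists were chosen with earlier results of these data known. Levels of different genes were not compared, since exon lengths were not used here.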

Additional observations from a re-analysis of the deposited data

Results flagged for a closer look

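The change of J2 enrichment between the combination and vehicle, tested as a difference between the groups in the edgeR fit with the tumour as a block, passed for 3 of the 6 members tested. It was −4.99 for Snhg14, −3.63 for Kcnq1ot1 and 1.70 for H19 on the log2 scale. The first and second held with any 1 tumour left out, and that of H19 was lost in 9 of 12 such fits.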

How the results depend on the processing

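Of 15 member results past the threshold, 6 kept direction and call in every alternative run: Snhg14 and Kcnq1ot1 for J2 against input and for its change with the combination, and Airn for J2 against input on average and in vehicle. By DESeq2 the genes called in inputs against vehicle were 34 (ORIN1001), 131 (docetaxel) and 2489 (combination), 2246 and 3460 for the combination against docetaxel and ORIN1001, and 6 for the J2 change with docetaxel; members called in the inputs were 1, 0, 1, 2 and 2 in the same order. Airn in inputs stood at 0.45 for docetaxel against vehicle and −0.05 for the combination against docetaxel by DESeq2, and at 0.04 for the first with RLE scaling. With no low-count filter, called members were 1 for the combination against docetaxel, 2 against ORIN1001, 1 for J2 with ORIN1001 and 1 for its J2 change; genes called for the J2 change were 17 with ORIN1001 and 141 with docetaxel, and J2 against input in vehicle was −0.01 for Rian and −0.03 for H19. Leaving out the filter moved the median of all genes for J2 against input, mean of treatments, to −0.23, against −0.05.

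With a replicate block over input numbers, 37, 0 and 717 genes were called for the combination against vehicle, docetaxel and ORIN1001, and 0 members in the last; these numbers are not paired in the labels, 1 of 18 such pairs of inputs correlated above 0.1 (−0.229 to 0.111), and an input correlated best with its own number in 8 of 36 matches to another treatment. With no replicate block in the J2 fit, genes called were 4489 in vehicle, 2759 with ORIN1001, 2181 with docetaxel and 2937 for the change with the combination; called members were 1 with docetaxel and 2 with the combination; Meg3 averaged −0.02, Rian in vehicle −0.01, H19 with docetaxel 0.40 and its change 0.08. The cause of these shifts was not tested.

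With 1 tumour left out, genes called ran from 0 to 1 for ORIN1001 and for docetaxel against vehicle in inputs, 0 to 5180 for the combination against vehicle, 0 to 4397 against docetaxel and 0 to 6507 against ORIN1001; 3670 to 9228 for J2 in vehicle, 2108 to 7175 with ORIN1001, 496 to 7117 with docetaxel and 3248 to 8223 with the combination; and 0 to 3, 0 to 10 and 3229 to 7375 for the J2 changes. Called members ran from 0 to 1, 0 to 3 and 0 to 2 for the combination against vehicle, docetaxel and ORIN1001, 1 to 2 for J2 on average, 1 to 3 in vehicle, 0 to 1 with ORIN1001, 0 to 3 with docetaxel and 2 to 5 with the combination. Member values that crossed 0 ran, with ORIN1001 in inputs, from −0.18 to 0.38 (Airn) and −0.50 to 3.36 (H19); with docetaxel −1.07 to 0.01 (Kcnq1ot1), −1.36 to 0.57 (Airn), −0.29 to 4.39 (Meg3) and −0.12 to 0.52 (Rian); with the combination −0.24 to 0.87 (Rian) and −2.31 to 1.39 (H19); against docetaxel −0.26 to 1.70 (Airn), −3.23 to 1.81 (Meg3) and −0.42 to 0.70 (Rian); against ORIN1001 −0.37 to 0.04 (Snhg14). For J2 they ran from −0.14 to 0.03 on average and −0.09 to 0.20 in vehicle (Rian), −0.45 to 0.26 in vehicle (H19), −0.27 to 0.71 (Snhg14) and −0.23 to 0.48 (Kcnq1ot1) with ORIN1001, −1.32 to 0.35 (Meg3) and −0.02 to 0.67 (Rian) with docetaxel, and for the docetaxel change −0.30 to 1.11 (Snhg14), −0.14 to 0.62 (Kcnq1ot1), −1.22 to 0.29 (Airn) and −0.06 to 0.64 (Rian). Scaling by exon length was not run. Counts under 10 in combination J2 libraries limit Snhg14, Rian and Mirg, and in that of tumour 1 also Meg3 and H19.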
